A study of Mus musculus with 5 samples.

Results

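The GADD45 family was followed here in mouse cells depleted of Upf1. The members were Gadd45a, Gadd45b and Gadd45g, together with Map3k4, the kinase that GADD45 proteins bind. They were picked out of the count table by gene symbol, as a family chosen with earlier results of these data known. All 4 had reads in every library, out of 55573 genes in the count table and 28121 genes with a read in at least 1 library.

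RNA-seq was carried out on N2A cells, a line also known as Neuro-2A that was derived from a mouse neuroblastoma. The cells were transfected with 60 pmol of a commercial negative-control siRNA (siCtl, 2 libraries, numbered 1 and 3) or of an siRNA against Upf1 (siUpf1, 3 libraries, numbered 1, 2 and 3). All 5 libraries thus came from 1 cell line and from siRNA-treated cells, and the 3 siUpf1 libraries from a single Upf1 siRNA. The study describes blots of cells treated in this way as independently repeated, but the labels do not say whether the libraries of a group came from separate transfections, so the p-values measure only the spread between these libraries, which may be technical.

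UPF1 is the RNA helicase at the centre of nonsense-mediated mRNA decay (NMD), a pathway that degrades transcripts with a premature stop codon and also many normal ones. The GADD45 proteins are small, acidic, stress-induced proteins of the nucleus and cytoplasm that act by binding others, among them PCNA, p21, the CDK1/cyclin B1 complex and MAP3K4. MAP3K4 (also called MEKK4) is held inactive by its own amino-terminal part until a GADD45 protein binds it, after which it phosphorylates the kinases that activate p38 and JNK. GADD45 transcripts are known in several animals as targets of NMD, and their rise when NMD fails has been tied to cell death.

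Depth was even across the libraries, with 20402205 to 27717594 assigned reads each. Values below are normalised read counts, meaning reads per gene divided by the DESeq2 size factor of the library. The targeted gene was checked before the members. Upf1 stood at 5217 and 5243 normalised counts in siCtl and at 2403, 2496 and 2449 in siUpf1. Upf1 RNA was therefore lower in every siUpf1 library, at 46.8% of the siCtl mean (log2 fold change -1.10, SE 0.0507, DESeq2 adjusted p = 7.09e-101). Of 11 neuronal and neuroblastoma markers, 9 reached 10 normalised counts in every library, and Nefl and Nefm were near 0. The summed level of those 11 markers was 42308 to 42428 in siCtl and 50910.2 to 52983 in siUpf1, and the part of this shift in the results below was not tested. Summed markers of other cell types were far lower in every library, with 288 to 306 and 223 to 258 normalised counts for fibroblasts in siCtl and siUpf1, 387 to 418 and 450 to 497 for glia, 35.6 to 37.7 and 31.2 to 34.7 for leukocytes, and 214 to 224 and 133 to 140 for endothelium. Most of these sums came from Pdgfra (means of 213 and 153 normalised counts in siCtl and siUpf1), Mbp (391.8 and 459) and Pecam1 (208 and 121), of which Pdgfra (log2 fold change -0.47) and Pecam1 (-0.78) were called lower, while Lum and Kdr had no read. The part of these markers in the results was not tested.

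The 3 GADD45 genes are short genes of the same build. In the reference annotation (GRCm38.p6), Gadd45a lies on the minus strand at chr6:67035096-67037457, Gadd45b on the plus strand at chr10:80930073-80932204, and Gadd45g on the plus strand at chr13:51846678-51848468. Each is made of 4 exons in its main transcript, and the proteins they encode have 165, 160 and 159 residues. Aligned in pairs, Gadd45a and Gadd45b were identical at 56.2% of positions, Gadd45a and Gadd45g at 59.0%, and Gadd45b and Gadd45g at 56.4%. Map3k4, on the minus strand at chr17:12227621-12318796, is of another kind, with 27 exons and a protein of 1597 residues. Gadd45a and Map3k4 overlap other annotated genes only on the opposite strand, and the reads were counted by strand.

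The promoters show what the GADD45 genes share and where they part. RefSeq promoter windows of the same build, from 250 bases before to 50 bases after the start of transcription, were searched on both strands for the octamer ATTTGCAT, which Oct-1 (Pou2f1) binds, for CCAAT, the NF-Y box, and for TATAAA. Over all 27025 promoters, the octamer was found in 1.75%, CCAAT in 37.9% and TATAAA in 14.2%. The octamer was present in Gadd45a, once on each strand, and in Gadd45g. It is shown here because so few promoters carry it, with the match in capitals; the sequences follow the sense strand of each gene, and ATGCAAAT is the octamer read on the other strand.
Gadd45a, chr6:67037489-67037512: gtctgctaATTTGCATaacccaat
Gadd45a, chr6:67037462-67037485: ctgactgcATGCAAATgaagctgg
Gadd45g, chr13:51846564-51846587: gccgcctcATTTGCATcagaaagc
The octamers began 97 and 70 bases before the RefSeq start in Gadd45a and 103 bases before it in Gadd45g. For the GADD45 genes the RefSeq starts are not those of the reference annotation given above, so all these distances depend on the annotation. Gadd45b had no octamer in its window, and neither did Map3k4. All 3 GADD45 genes had a CCAAT box, which is shown because it was common to the family, again with the match in capitals.
Gadd45a, chr6:67037481-67037501: tgcataacCCAATggcctgac
Gadd45b, chr10:80929944-80929964: atctccagCCAATctcagcgc
Gadd45b, chr10:80929983-80930003: tgcatctaCCAATgggtggaa
Gadd45g, chr13:51846589-51846609: ggcgctggCCAATgggagtgc
These boxes began 86, 139, 100 and 78 bases before the start. Gadd45b and Gadd45g, but not Gadd45a, also had TATAAA, 46 and 27 bases before it. The Map3k4 window held none of the 3 motifs, and at 72.7% it was richer in G and C than those of the GADD45 genes, which had 61% to 62.3%. No matches overlapped each other. They are letters in a window and not measured binding sites.

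**Figure D1:**
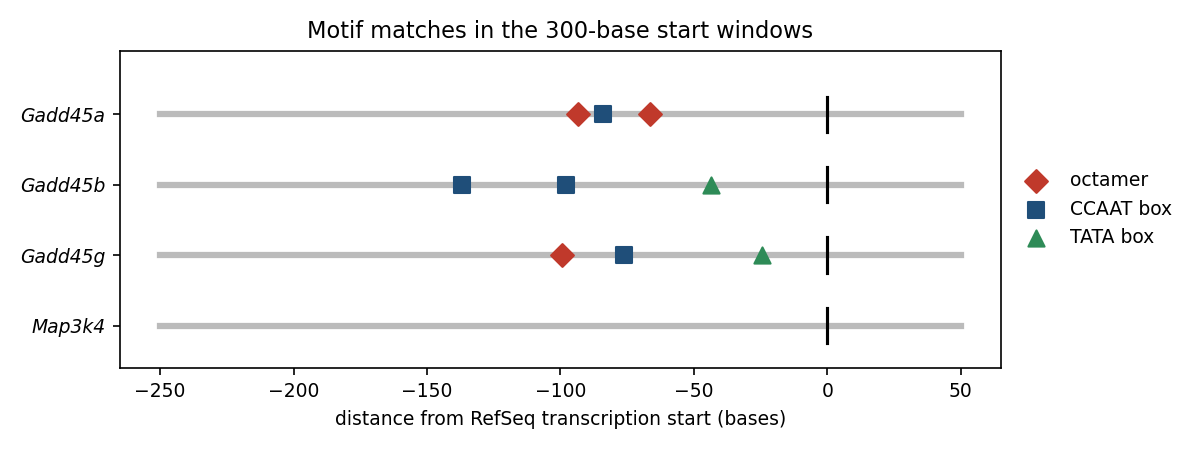
Matches to 3 promoter motifs in the GADD45 genes and Map3k4, plotted by their distance in bases from the start of transcription. Gadd45a and Gadd45g carried the octamer, all 3 GADD45 genes carried CCAAT, Gadd45b and Gadd45g carried TATAAA, and Map3k4 carried none.

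Because the family is known for its tie to NMD, the main transcripts (the annotation's principal isoform of each gene) were examined for features that mark NMD targets. An exon junction more than 50 nt past the stop codon, the classical signal, was absent from all 4 members, as it was from all but 0.453% of 21864 protein-coding genes. None of the members had a transcript annotated as an NMD isoform, against 20.5% of protein-coding genes with at least 1. Each did have transcripts annotated as retaining an intron, 4 in Gadd45a, 1 each in Gadd45b and Gadd45g, and 3 in Map3k4. Those transcripts were not examined for premature stop codons, and reads per gene do not tell them apart from the main ones. The 3′ untranslated regions were of usual length, at 563 nt in Gadd45a, 558 nt in Gadd45b, 489 nt in Gadd45g and 479 nt in Map3k4, where the median gene had 630 nt. The GADD45 coding sequences, of 498, 483 and 480 nt, were short against a median of 1159.5 nt.

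Start codons upstream of the reading frame, which can lead ribosomes to stop early, were found in 50.5% of 19752 genes with a 5′ untranslated region. The main transcripts of Gadd45a, Gadd45b and Gadd45g had none, and the one of Map3k4 had 2. They are shown, with the start codon in capitals, because they were the only such feature found in the 4 main transcripts.
Map3k4, 141 nt before the main start codon: gttcccaagATGgccgct
Map3k4, 20 nt before the main start codon: gccgcggtcATGcgaagc
The upstream frames had 11 and 7 codons, and the latter ended 4 nt into the main reading frame. Over all protein-coding transcripts rather than the main one, Gadd45b had 1 upstream start codon. No 3′ untranslated region of a member held a match to the seed of either strand of the Upf1 siRNA, which 14.1% of 19934 genes did.

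The members did not move together after Upf1 depletion. Gadd45a RNA fell and Map3k4 RNA rose. Gadd45g RNA was also called higher, but that call held in only 5 of 13 alternative settings. These changes were all less than 1.5-fold, and Gadd45b RNA did not pass the test. A gene was called at a DESeq2 adjusted p under 0.05 over all 15191 genes tested. By that rule 44.9% of those genes were called, 22% higher and 22.9% lower in siUpf1, and in 69.4% the libraries of the groups did not overlap. Against this background, 3 of 4 members called and 3 of 4 not overlapping is not a result about the family as a group, and each gene is described on its own. In bulk RNA, fewer expressing cells and less RNA per cell cannot be told apart.

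**Figure D2:**
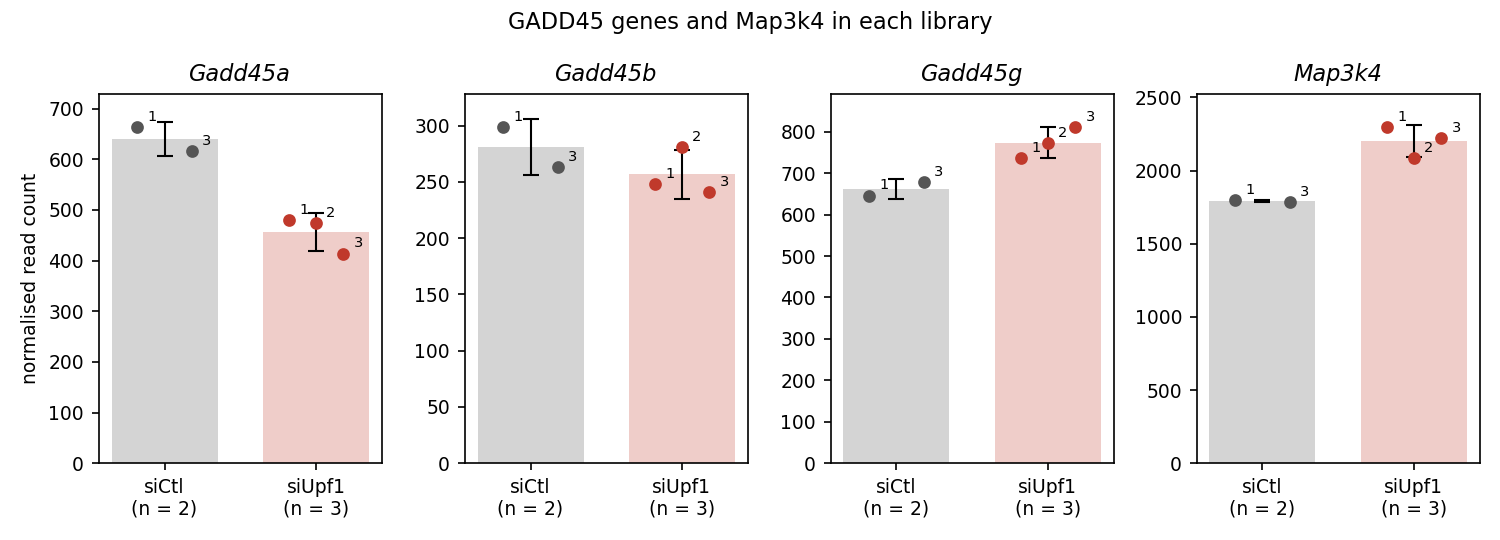
Normalised read counts of Gadd45a, Gadd45b, Gadd45g and Map3k4 in each library, with siCtl (n = 2) and siUpf1 (n = 3) side by side, points for libraries and bars for the mean and SD. The groups were apart for Gadd45a, Gadd45g and Map3k4 and overlapped for Gadd45b.

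Gadd45a, a p53 target induced by DNA damage, was the member that fell. Its normalised counts were 663.5 and 616.1 in siCtl and 480.3, 474.4 and 413.6 in siUpf1. Every siUpf1 library was below both siCtl libraries, and the distance between the groups exceeded the spread within either. The mean fell from 639.8 ± 33.6 (SD, n = 2) to 456 ± 36.9 (SD, n = 3), to 71.3% (log2 fold change -0.49, SE 0.111, 95% interval -0.71 to -0.27, DESeq2 adjusted p = 4.74e-05). The raw reads behind these values, 378 to 653 a library, carry a counting error of 3.91% to 5.14%. Among all called genes, 57.8% had a log2 fold change no larger in size, so the fall was of middling size for these cells. Gadd45a was called lower in each of the 13 alternative settings tried, with log2 fold changes from -0.54 to -0.42.

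Gadd45b, the member known for induction by NF-κB and TGF-β, was the least abundant of the family. It stood at 298.7 and 263.2 normalised counts in siCtl and at 248.1, 281.1 and 240.7 in siUpf1. The groups overlapped, since siUpf1 replicate 2 lay between the siCtl libraries. The means were 281 ± 25.1 (SD, n = 2) and 257 ± 21.5 (SD, n = 3), and the log2 fold change, at -0.13 with an SE of 0.150, did not pass the test (DESeq2 adjusted p = 0.507). Its 95% interval ran from -0.43 to 0.16, that is, from 0.743 to 1.12 of the siCtl level. With this SE, a fall of Gadd45b smaller than that of Gadd45a, or a small rise, could not be told from no change. The interval of Gadd45b also overlaps that of Gadd45a. With 224 to 285 raw reads, Gadd45b also had the largest counting error of the 4, 5.92% to 6.68%.

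Gadd45g, which is linked to differentiation and growth arrest in the nervous system, was a little higher after Upf1 depletion. It measured 645.7 and 679.3 normalised counts in siCtl and 736.4, 771.9 and 811.2 in siUpf1. All siUpf1 libraries were above both siCtl libraries, though the gap between the groups was narrow. The mean went from 662 ± 23.7 (SD, n = 2) to 773 ± 37.4 (SD, n = 3), or 117% (log2 fold change 0.22, SE 0.0945, 95% interval 0.04 to 0.41, DESeq2 adjusted p = 0.0425). Of all called genes, 14.1% had changes no larger in size. The call was close to the threshold and was lost when any 1 of the 5 libraries was left out. The adjusted p was 0.304 without siCtl replicate 1, 0.136 without siCtl replicate 3, and 0.0513, 0.101 and 0.208 without siUpf1 replicates 1, 2 and 3. It was 0.0557 with TMM scaling, 0.0784 without independent filtering and 0.00759 with the edgeR quasi-likelihood test, and Gadd45g was called in 5 of 13 alternatives.

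Map3k4 was the best measured member, with 1663 to 2583 raw reads a library. Its normalised counts were 1798 and 1786 in siCtl and 2297, 2087 and 2223 in siUpf1. The siCtl libraries were nearly equal, with an SD of 0.466% of their mean. That is below the counting error of 1.97% to 2.45% a library, so their closeness does not measure precision. Every siUpf1 library was above both siCtl libraries. The mean rose from 1792 ± 8.35 (SD, n = 2) to 2203 ± 107 (SD, n = 3), to 123% (log2 fold change 0.30, SE 0.0646, 95% interval 0.17 to 0.43, DESeq2 adjusted p = 1.66e-05). It was called higher in all 13 alternatives, at 0.25 to 0.34, and 29.1% of called genes had changes no larger in size.

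**Figure D3:**
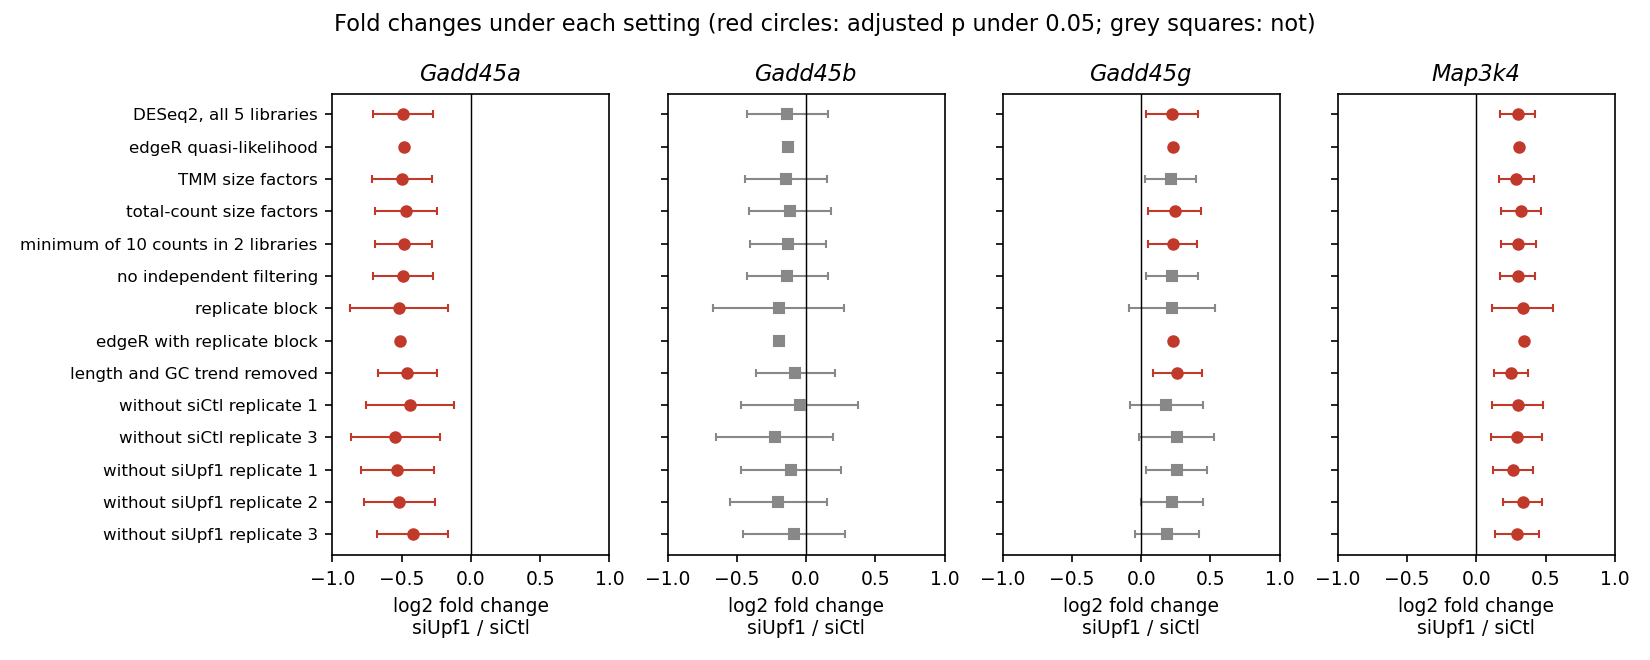
Log2 fold change (siUpf1 over siCtl) of Gadd45a, Gadd45b, Gadd45g and Map3k4 in the DESeq2 fit over all 5 libraries and under each of 13 alternatives, in red circles where the adjusted p was under 0.05 and in grey squares where it was not, with 95% intervals for DESeq2 fits and none for edgeR. Gadd45a was called lower and Map3k4 higher in all of them, Gadd45b in none, and Gadd45g lost its call in 8 of 13.

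Levels of different genes were compared as normalised counts per kilobase of merged exons. In siCtl the order was Gadd45g at 565 ± 20.2 (SD, n = 2), Gadd45a at 363 ± 19.0, Gadd45b at 177 ± 15.8 and Map3k4 at 176 ± 0.821 per kilobase. Gadd45g and Gadd45a were apart by more than their spread, and Gadd45b and Map3k4 were not. In siUpf1 the levels were 659 ± 31.9 (SD, n = 3) for Gadd45g, 259 ± 20.9 for Gadd45a, 216 ± 10.5 for Map3k4 and 162 ± 13.5 for Gadd45b. Map3k4 now stood above Gadd45b, and the order of the 3 GADD45 genes was as in siCtl. The place of Map3k4 depends on the length used. Its merged exons span 10181 nt, retained introns included, whereas its longest protein-coding transcript has 5441 nt, and by that length its siCtl level was 329 per kilobase, above the 219 of Gadd45b.

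Summed over Gadd45a, Gadd45b and Gadd45g, the level of the family was 1115 and 1094 normalised counts per kilobase in siCtl and 1056, 1104 and 1077 in siUpf1. The groups overlapped, with means of 1104 ± 14.6 (SD, n = 2) and 1079 ± 23.9 (SD, n = 3). The make-up of that sum differed between the groups, as a description without a test. Gadd45g made up 49.4% to 52.9% of it in siCtl and 59.4% to 64.2% in siUpf1. The share of Gadd45a went the other way, from 31.9% to 33.7% in siCtl to 21.8% to 25.8% in siUpf1. The shares are parts of the same sum, so a lower level of Gadd45a by itself raises the share of Gadd45g. The opposite shifts are therefore not separate observations. Gadd45b held 15.1% to 16.9% and 14.1% to 16.0%, and here the groups overlapped. In shares made with the longest protein-coding transcript, Gadd45g and Gadd45a moved in the same directions, Gadd45g from 43.7% to 47.2% in siCtl to 54.0% to 59.0% in siUpf1.

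**Figure D4:**
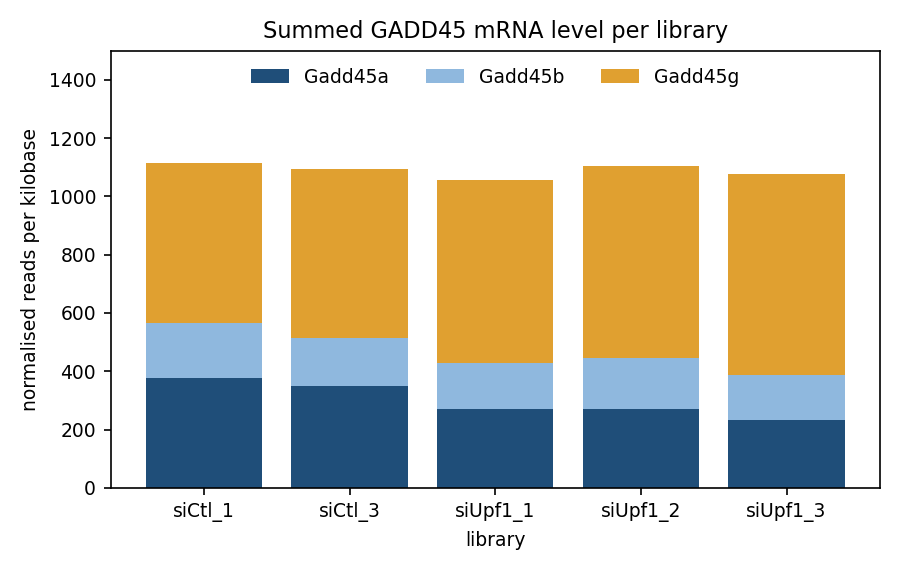
Stacked levels of Gadd45a, Gadd45b and Gadd45g as normalised counts per kilobase of merged exons in each library of siCtl (n = 2) and siUpf1 (n = 3). Gadd45g was the highest of the family in every library, and its share of the sum was 49.4% to 52.9% in siCtl and 59.4% to 64.2% in siUpf1.

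Ratios of members within a library do not depend on how libraries are scaled. The log2 ratio of Gadd45a to Gadd45g counts was 0.04 and -0.14 in siCtl and -0.62, -0.70 and -0.97 in siUpf1. All siUpf1 ratios were below the siCtl ones, a difference of -0.71 in the mean. The ratio of Gadd45a to Gadd45b was 1.15 and 1.23 in siCtl and 0.95, 0.75 and 0.78 in siUpf1, again without overlap, with a mean difference of -0.36. The ratios of Gadd45a to Map3k4 (difference -0.79) and of Gadd45b to Gadd45g (difference -0.35) were also lower in every siUpf1 library. So were those of Gadd45b to Map3k4, with a difference of -0.43. For Gadd45g and Map3k4, the members with higher means in siUpf1, the ratios of the groups overlapped, with a difference of -0.07. With 2 and 3 libraries the two-sided exact permutation test cannot go below p = 0.1, which the first 4 of these ratios reached, while Gadd45b against Map3k4 gave 0.2. After Benjamini-Hochberg adjustment over the 6 pairs the value was 0.15 for those 4, 0.24 for Gadd45b against Map3k4 and 0.6 for Gadd45g against Map3k4.

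The genes around the family were taken from 5 lists of known regulators, partners and cascade members, 81 genes in all. Of these 76 were tested, and 23 were higher and 22 lower in siUpf1. That is 59.2% called beside 44.9% of all genes tested. The median log2 fold change of the listed genes was -0.02, beside 0.00 over all genes tested. The shares here and below are not matched for level. The median tested gene averaged 574 normalised counts, and many listed genes stood well above that. The part of level in the shares was not tested.

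Among 17 transcription factors known to act on Gadd45 genes, 16 were tested, of which 10 were lower and 1 was higher, with a median of -0.29. Over all genes tested these shares were 22.9% lower and 22% higher. The 10 include Brca1 (-0.15), which was called in 5 of 13 alternatives and had an adjusted p of 0.0612, 0.334, 0.111 and 0.0810 without siCtl replicates 1 and 3 and siUpf1 replicates 2 and 3, and Foxo3 (-0.23), with 0.0651 without siCtl replicate 3. Trp53, which encodes p53, stood at 5059 and 5221 normalised counts in siCtl and at 3272, 3345 and 3150 in siUpf1, a log2 fold change of -0.66. It was lower in every siUpf1 library, as was Gadd45a, and a link between them was not tested. Others that fell were the immediate-early factor Egr1 (log2 fold change -1.001), Cebpb (-0.80), Atf3 (-0.73), Rela, the p65 subunit of NF-κB (-0.53), the stress factor Ddit3, or CHOP (-0.50), and Atf4 (-0.33). Foxo4 was the one that rose (0.63). Nfkb1, the gene for another NF-κB subunit, had a log2 fold change of 0.05 (DESeq2 adjusted p = 0.603). Pou2f1, which encodes Oct-1, had a log2 fold change of -0.01 (DESeq2 adjusted p = 0.920), and Nfya, a subunit of NF-Y, one of -0.04 (adjusted p = 0.717).

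Of the 10 genes for proteins that GADD45 proteins bind, 5 were lower and 3 higher, beside 22.9% and 22% of all genes tested, with a median of -0.14. Cdkn1a, which encodes the cell-cycle inhibitor p21 and like Gadd45a is a p53 target, went from 2201 and 2102 normalised counts in siCtl to 1447, 1458 and 1276 in siUpf1 (log2 fold change -0.63). The groups did not overlap, as in 69.4% of all genes tested, and a link to the fall of Trp53 was not tested. Npm1, the nucleolar chaperone (log2 fold change -0.58), and Pcna, the replication clamp (-0.40), also fell. Cdk1 (-0.13) and Ccnb1 (-0.20), the mitotic kinase and its cyclin, were also called lower, but without siCtl replicate 3 their adjusted p was 0.308 and 0.133, and for Cdk1 it was 0.173 without siUpf1 replicate 3. Tet1, an enzyme of DNA demethylation, rose from 95.4 and 85.9 normalised counts to 200.1, 195.8 and 218.4, a log2 fold change of 1.18, and the repair nuclease gene Ercc5 rose by 0.30.

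Of 20 other MAP kinase kinase kinases, the level at which Map3k4 acts, 18 were tested, 8 were higher and 3 lower, beside 22% and 22.9% of all genes tested, with a median of 0.24. Map3k13, which encodes the leucine-zipper kinase LZK, changed most, from 577.6 and 506.6 normalised counts in siCtl to 1580, 1461 and 1594 in siUpf1 (log2 fold change 1.51). Every siUpf1 library was far above both siCtl libraries. Taok3 (0.70), Map3k1 (0.68), Map3k3 (0.49), Taok2 (0.43), Map3k10 (0.36) and Map3k7, which encodes TAK1 (0.29), also rose. Map3k5, the gene for ASK1 (log2 fold change -0.66), and Map3k12, the gene for DLK, the closest relative of LZK (-0.37), fell. Map3k6 and Map3k14 were also called, at 0.28 and -0.44, but not without siCtl replicate 1 (adjusted p 0.114 and 0.190), and Map3k6 not without siCtl replicate 3 (0.158) or siUpf1 replicates 1 and 2 (0.0667 and 0.0792).

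Below MAP3K4, 22 of 24 genes of the p38 and JNK cascade were tested, of which 10 were higher and 2 lower, with a median of 0.17. That is 54.5% called, near the 44.9% of all genes tested. More of the calls were higher than lower, where over all genes tested 22% were higher and 22.9% lower. Mapk14, which encodes p38α, had 2743 and 2655 normalised counts in siCtl and 3413, 3527 and 3483 in siUpf1, a log2 fold change of 0.36. The p38 genes Mapk11 (-0.05, adjusted p = 0.629) and Mapk12 (-0.02, adjusted p = 0.831), did not pass the test. Of the JNK genes, Mapk8 (0.30) and Mapk9 (0.35) rose and Mapk10 did not pass (0.12, adjusted p = 0.285), and the value of Mapk8 was 0.18 once the trend with length and GC content was removed. Jun, a JNK substrate, went from 1860 and 1924 to 2648, 2662 and 2588 normalised counts (log2 fold change 0.48), and Atf2, which both kinases phosphorylate, rose by 0.47. The groups of Mapk14 and of Jun did not overlap. Mapkapk3, a kinase that p38 activates, had the largest change of the list (-1.02), but its adjusted p was 0.0614 without siCtl replicate 3. Mapk8ip2, a JNK scaffold (0.14), was not called when any 1 library was left out, with adjusted p of 0.189 and 0.222 without siCtl replicates 1 and 3 and of 0.0598, 0.0830 and 0.132 without siUpf1 replicates 1, 2 and 3. Of the kinases between MAP3K4 and p38 or JNK, Map2k3 was lower (-0.27), Map2k4 was higher (0.21, but with an adjusted p of 0.1002 without siCtl replicate 3), Map2k7 was at 0.13 (adjusted p = 0.0930) and Map2k6 had no read. Of 10 phosphatases that switch p38 and JNK off, 1 was higher and 2 were lower, beside 22% and 22.9% of all genes tested. That is 30% called beside 44.9% of all genes tested, with a median of 0.04. Dusp8 rose (log2 fold change 0.60) and Dusp2 fell (-1.003). Ppm1a, also called lower (-0.18), had an adjusted p of 0.176 without siCtl replicate 1. These are RNA levels, and kinase activity was not measured.

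**Figure D5:**
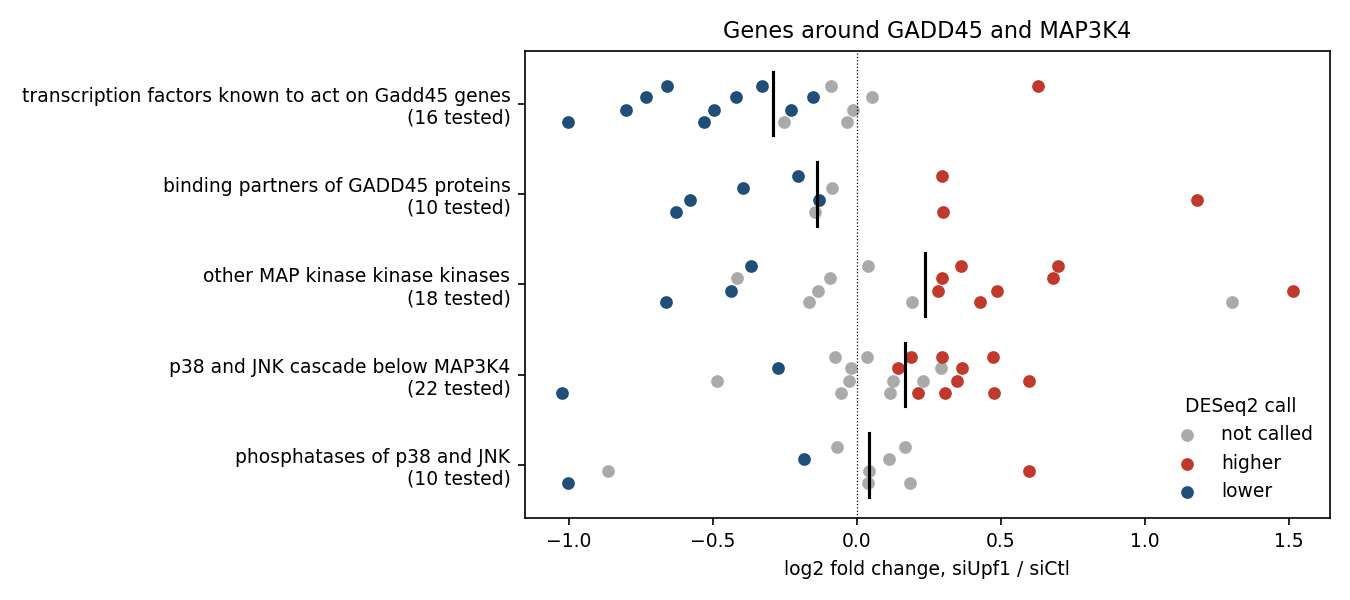
Log2 fold change (siUpf1 over siCtl) of the tested genes of 5 lists around the GADD45 family, 1 point a gene, with called genes marked apart from genes not called. Transcription factors lay mostly below 0, with a median of -0.29, and the other MAP kinase kinase kinases mostly above it, with a median of 0.24.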

How the data were processed

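The deposited values were raw counts of reads per gene, not normalised. Per the study's methods and the submitters' processing notes, the authors mapped stranded poly(A) RNA-seq reads to GRCm38.p6 with STAR 2.7.0f and counted exon reads on the reverse strand with featureCounts (Subread 1.6.4). Libraries were grouped by their labels.

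siUpf1 was compared with siCtl over the whole table with DESeq2 1.42.0 in R 4.3.3 (Wald test, median-of-ratios size factors, independent filtering, Benjamini-Hochberg adjustment, threshold 0.05). Alternatives were the edgeR 4.0.16 quasi-likelihood test, TMM and total-count scaling, removal of genes without 10 counts in 2 libraries or more, no independent filtering, a correction for length and GC content, the replicate number as a block in DESeq2 and in edgeR, and leaving out each library. The fit was tested on simulated data. Intervals of 95% and counting errors (the square root of the count) cover the spread and counting error only, as PCR duplicates cannot be recognised in counts. Transcripts, lengths and coding sequences came from a GENCODE M21 annotation of the same build, which differs in release from the authors' annotation, and promoters from RefSeq (GRCm38.p6). Proteins were translated from the main coding sequences.

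The members and the gene lists were chosen with earlier results of these data known, and no list was tested as a set. One marker gene of the neuronal list is not reported here. Named genes were the members, Upf1, genes of the lists, and for each member the 3 genes of most similar profile.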

Additional observations from a re-analysis of the deposited data

How the results depend on the processing

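Gadd45a, Gadd45b and Map3k4 kept their direction and their side of the threshold in all 13 alternatives. Gadd45g did not. Its log2 fold change was 0.21 with TMM scaling (DESeq2 adjusted p = 0.0557) and 0.22 without independent filtering (0.0784), and 0.18 to 0.26 when 1 library was left out. In these settings, and with the replicate block in DESeq2, 1 member was called higher in place of 2. Libraries of the same number were not alike in their deviations from the group mean (correlation -0.102 for number 1 and -0.105 for number 3, over 10963 genes). No siCtl library is numbered 2. With 2 siCtl libraries the deviations of 1 mirror those of the other. The correlations are thus not separate checks, and they cannot decide whether the numbers pair the libraries. With the replicate block DESeq2 gave Gadd45g 0.22 (adjusted p = 0.302), 14 pathway genes lower in place of 22, and 3919 calls in all in place of 6822. With the block in edgeR, Gadd45g was called (0.23, adjusted p = 0.0172), 22 pathway genes were lower and 27 higher, and 7659 genes were called, beside 8392 in edgeR without it. Without 1 library, 17 to 22 pathway genes were lower and 20 to 22 higher. Of 585 values of the 45 called pathway genes under the alternatives, 545 kept their call, 40 lost it and 0 reversed. Per kilobase of longest protein-coding transcript, the siCtl and siUpf1 levels were 523 and 373 for Gadd45a, 219 and 199.9 for Gadd45b, 619 and 722 for Gadd45g, and 329 and 405 for Map3k4. Map3k4 was at 175 per kilobase in siCtl with total-count scaling. Gadd45b had 1 upstream start codon over all its protein-coding transcripts in place of 0. The cause of these shifts was not tested. The 2 siCtl libraries, and for Gadd45b the 224 to 285 reads a library, limit how small a change could be told from none.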

Other observations

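For each member, the genes whose profile over the 5 libraries was most like its own were listed among the 10963 genes averaging 100 normalised counts or more, by the root mean square difference of centred log2 values. Nearest to Gadd45a were Mcub (0.0223), Cep128 (0.0260) and Myh14 (0.0336). Gadd45b lay nearest to Gm42688 (0.0219), Zfp128 (0.0232) and Polr3b (0.0279). Nearest to Gadd45g were Sipa1 (0.0137), Hagh (0.0169) and Cep152 (0.0178), and nearest to Map3k4 were Mycbp2 (0.00289), Kpna4 (0.0169) and Senp8 (0.0189). The points share 5 libraries and the contrast between the groups, so such likeness is a description.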
